A study of Mus musculus with 2 samples.

Results

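Myosin light chains and the kinases that phosphorylate them were followed by name in RNA of mouse gastrocnemius, the large calf muscle. The 10 genes are 5 essential light chains (Myl1, Myl3, Myl4, Myl6 and Myl6b), 2 regulatory light chains (Mylpf and Myl2) and 3 kinases (Mylk, Mylk2 and Mylk4). Each matched 1 identifier among the 34745 genes of the count table. The genes were picked by name, with earlier results of these data known. Positions are on GRCm38, from GENCODE M21. All 10 passed the filter of a mean of at least 1 CPM (counts scaled to library size).

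The study compared 2 libraries from C57BL/6 mice aged 8 weeks. In the Cry2flox library the genotype was Cry2flox/flox, meaning that recombination sites flank part of Cry2, which encodes the circadian repressor cryptochrome 2. The other library carried the genotype label Cry2scko. The labels do not spell out that abbreviation, and the recombinase, the cells it acts in and the hour of collection are not given in the sources used here. The design text speaks of 1 mouse of each genotype and the protocol of mice, so pooling of animals cannot be settled.

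The depth was 18909433 reads in Cry2flox and 16423884 in Cry2scko. Cry2 itself had 676 and 133 reads, a log2 ratio of -2.16. The 8 fast-fibre markers were all detected, among them muscle creatine kinase Ckm at 15897 CPM in Cry2flox and 16176 CPM in Cry2scko, as in fast skeletal muscle. Of 7 heart muscle markers, 4 had no reads in either library (Myl7, Nppa, Nppb and Mybpc3). For scale, 3 reads would equal 0.160 CPM in Cry2flox and 0.181 CPM in Cry2scko. The other 3 were detected at low counts in Cry2flox and Cry2scko: Myh6 with 79 and 84 reads, Tnnt2 with 86 and 72, and Tnni3 with 21 and 9. Neither genotype was replicated, so no p-value is given and no difference can be set against the spread between animals. The intervals given are exact 95% counting intervals, they cover counting error only, and reads copied by PCR are not independent molecules. Ratios are Cry2scko over Cry2flox, on TMM-scaled counts.

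Myosin is a motor whose heavy chain carries an essential and a regulatory light chain on its lever arm. Fast fibres pair their heavy chains with Myl1 and Mylpf, while slow fibres and the heart ventricle use Myl3 and Myl2. Myl4 belongs to embryonic muscle and the atrium, Myl6 to non-muscle and smooth muscle cells, and Myl6b to slow muscle and non-muscle cells. Kinases that respond to calcium phosphorylate the regulatory chain, Mylk2 in skeletal muscle and Mylk in smooth muscle and other cells, and a phosphatase built on Ppp1cb and a Ppp1r12 subunit removes the phosphate. Mylk4 is a further member of the kinase family.

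The stretches before the start sites of Myl3, Myl6b and Mylk4, the 3 genes whose ratios lay furthest from 1, are shown with that of Mylpf, the most abundant member, which differed little. They come from RefSeq on GRCm38.p6, read 5′ to 3′, and capitals mark matches, on either strand, to the motifs searched. Each begins 250 bases before the RefSeq start; the Myl3 stretch ends 33 bases before it, where annotated exon begins, and the others end at the base before it.
Myl3 (chr9:110763428-110763645, plus strand): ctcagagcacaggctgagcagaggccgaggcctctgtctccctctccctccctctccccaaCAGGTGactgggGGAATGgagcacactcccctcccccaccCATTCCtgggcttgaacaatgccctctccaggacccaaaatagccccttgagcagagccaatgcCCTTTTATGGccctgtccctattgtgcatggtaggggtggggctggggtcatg
Myl6b (chr10:128498686-128498935, minus strand): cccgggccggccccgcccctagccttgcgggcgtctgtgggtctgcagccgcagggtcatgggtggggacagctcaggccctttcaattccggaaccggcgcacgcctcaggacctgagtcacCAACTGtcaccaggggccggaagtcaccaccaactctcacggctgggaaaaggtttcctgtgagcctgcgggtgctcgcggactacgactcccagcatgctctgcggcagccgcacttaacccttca
Mylk4 (chr13:32783965-32784214, minus strand): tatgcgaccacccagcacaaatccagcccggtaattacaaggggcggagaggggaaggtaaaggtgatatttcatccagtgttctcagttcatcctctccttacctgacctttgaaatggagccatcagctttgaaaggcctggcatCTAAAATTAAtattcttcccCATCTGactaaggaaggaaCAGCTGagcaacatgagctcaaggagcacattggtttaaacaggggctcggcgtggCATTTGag
Mylpf (chr7:127211358-127211607, plus strand): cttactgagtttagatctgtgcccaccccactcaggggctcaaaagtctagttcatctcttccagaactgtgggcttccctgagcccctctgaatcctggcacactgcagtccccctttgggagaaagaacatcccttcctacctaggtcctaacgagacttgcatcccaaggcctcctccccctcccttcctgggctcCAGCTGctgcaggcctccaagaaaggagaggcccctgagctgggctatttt

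RefSeq windows were matched for 9 of the 10 members, all but Mylk2, with 11 windows in all. The Myl2 windows lie 8227 and 7762 bases before the nearest GENCODE start of Myl2, so they do not cover that start. Both strands of the 250 bases were searched, and matches of the general E-box include those of the clock E-box. The general E-box CANNTG, the core bound by myogenic factors among others, occurred in 8 of the 11 windows and in 66.2% of all 32841 windows of that length. The clock E-box CACGTG occurred in 0 of the 11 and in 6.02% of all. The D-box, written TTATGTAA or TTACGTAA and bound by clock output factors such as Dbp, occurred in 0 of the 11 and in 0.932% of all. The MCAT motif CATTCC was found in 3 windows (Myl1, Myl3 and Mylk; 12.6% of all), and the Myl3 stretch holds it at 2 places. A CArG box, the site of serum response factor, was found in 2 windows (Myl3 and Myl6; 1.47% of all), and a MEF2 box in 1 (Mylk4; 2.92% of all). The Myl6 window with the CArG box lies wholly within annotated Myl6 exons, and the Myl1 MCAT match lies in annotated Myl1 exon. These matches describe letters in the windows only.

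Slow-type light chains were higher in the Cry2scko library, fast-type chains were nearly equal, and 1 kinase was lower. Myl3 was 1.80-fold, Myl6b 1.83-fold and Myl2 1.46-fold higher. Mylk4 was 1.77-fold lower, while Myl1, Mylpf, Mylk2 and Mylk were within 1.09-fold. None of the 10 members was called at 2-fold, a rule that also asks the counting interval to exclude a ratio of 1; of all 12832 genes compared, 4.88% were called. At 1.5-fold, 2 of the 10 were higher (Myl3 and Myl6b; 6.56% of all genes) and 1 was lower (Mylk4; 4.35% of all genes). The members' median log2 ratio was -0.07, against -0.00 for all genes compared.

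**Figure D1:**
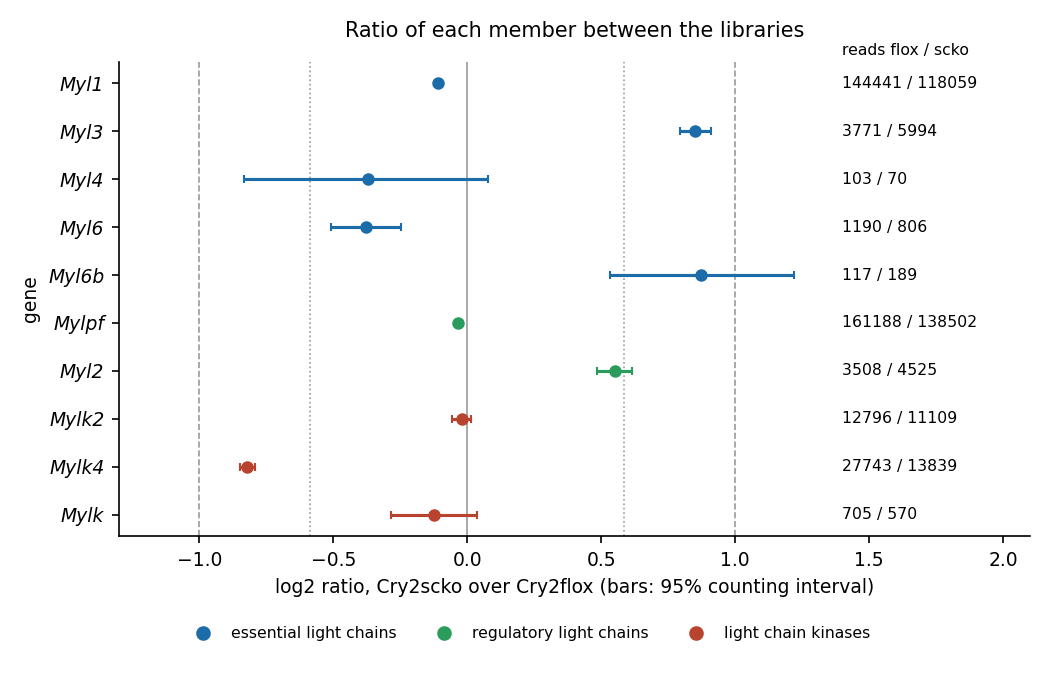
Log2 ratio of Cry2scko over Cry2flox (horizontal axis) for each of the 10 genes, coloured by role, with 95% counting intervals as bars and the reads of both libraries at the right. Dashed lines mark 2-fold and dotted lines 1.5-fold; Myl3 at 0.85, Myl6b at 0.87 and Mylk4 at -0.82 lie between the dotted and dashed lines.

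Among essential chains, Myl1 (ENSMUSG00000061816, chromosome 1, 66924295 to 66945404, minus strand) was the most abundant. Reads numbered 144441 in Cry2flox and 118059 in Cry2scko, or 7692 and 7138 CPM. Its log2 ratio was -0.11 (-0.12 to -0.10), a 1.08-fold lower level. The depth resolves it, but other scalings moved the ratio to as near 0 as -0.08. The gene makes a long and a short essential chain from separate starts, and these counts pool them. An annotated processed copy, Mylf-ps, matches 421 bases of Myl1 at 99.3% identity.

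Myl3 (ENSMUSG00000059741, chromosome 9, 110741861 to 110769798, plus strand), the slow and ventricular essential chain, had 3771 reads in Cry2flox and 5994 in Cry2scko. These are 201 and 362 CPM, a log2 ratio of 0.85 (0.79 to 0.91). Of the 950 genes with a mean of at least 100 CPM, 1.47% had a higher ratio than Myl3. In whole muscle, more cells of a type and more RNA in each cell cannot be told apart. Pth1r, transcribed from the opposite strand, overlaps 95 exon bases of Myl3 and had 22 and 7 reads.

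Myl6b (ENSMUSG00000039824, chromosome 10, 128494157 to 128498685, minus strand) was scarce, with 117 reads in Cry2flox and 189 in Cry2scko. Its level was 6.23 and 11.4 CPM, and its log2 ratio of 0.87 had a wide interval (0.53 to 1.22) that takes in both 1.5-fold and 2-fold. Myl6 (ENSMUSG00000090841, chromosome 10, 128490860 to 128494145, minus strand), its neighbour on the same strand, went the other way. It had 1190 and 806 reads, or 63.4 and 48.7 CPM, at -0.38 (-0.51 to -0.25). No exon bases are shared between these neighbours. Several annotated processed copies match Myl6 closely, the longest being Gm8894 with 657 bases at 97.0% identity, so its reads may be split in a way that the counting method sets.

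Myl4 (ENSMUSG00000061086, chromosome 11, 104550663 to 104595753, plus strand), the embryonic and atrial chain, was the least abundant essential chain. With 103 reads in Cry2flox and 70 in Cry2scko, or 5.49 and 4.23 CPM, its log2 ratio was -0.37 (-0.83 to 0.08). A difference in Myl4 was not detectable at this depth. It overlaps 3 exon bases of Gm22000, which had 2 and 3 reads.

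The fast regulatory chain Mylpf (ENSMUSG00000030672, chromosome 7, 127208890 to 127214298, plus strand) was the most abundant of all members and the 18th gene by reads in both libraries. Its 161188 reads in Cry2flox and 138502 in Cry2scko correspond to 8584 and 8374 CPM, a log2 ratio of -0.04 (-0.05 to -0.03). Its slow counterpart Myl2 (ENSMUSG00000013936, chromosome 5, 122100951 to 122113472, plus strand) had 3508 and 4525 reads, and Ccdc63, which overlaps 60 of its exon bases, had 2 and 4. Myl2 stood at 187 CPM in Cry2flox and 274 CPM in Cry2scko, with a log2 ratio of 0.55 (0.49 to 0.61). It was thus just under the 1.5-fold line, and 2.21% of genes with a mean of at least 100 CPM had a higher ratio.

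Among the kinases, Mylk2 (ENSMUSG00000027470, chromosome 2, 152911352 to 152923068, plus strand), the skeletal muscle enzyme, was equal within counting error. Its 12796 reads in Cry2flox and 11109 in Cry2scko correspond to 681 and 672 CPM, a log2 ratio of -0.02 (-0.06 to 0.02) whose sign changes with the scaling. Mylk4 (ENSMUSG00000044951, chromosome 13, 32700834 to 32783954, minus strand) had 27743 and 13839 reads. At 1477 CPM in Cry2flox and 837 CPM in Cry2scko its log2 ratio was -0.82 (-0.85 to -0.79). Of the 950 genes with a mean of at least 100 CPM, 0.947% had a lower ratio, and 1.89% were called lower at 1.5-fold. Mylk4 shares no exon bases with another annotated gene, but short stretches of its transcript match many other genes. Igsf11 is among them, with 125 bases at 95.2% identity. Mylk (ENSMUSG00000022836, chromosome 16, 34745210 to 35002420, plus strand), the smooth muscle and non-muscle kinase, had 705 and 570 reads, or 37.5 and 34.5 CPM, at -0.12 (-0.29 to 0.04). It shares 548 exon bases with E130310I04Rik and 224 with Gm21691, both on the other strand; neither was analysed here.

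**Figure D2:**
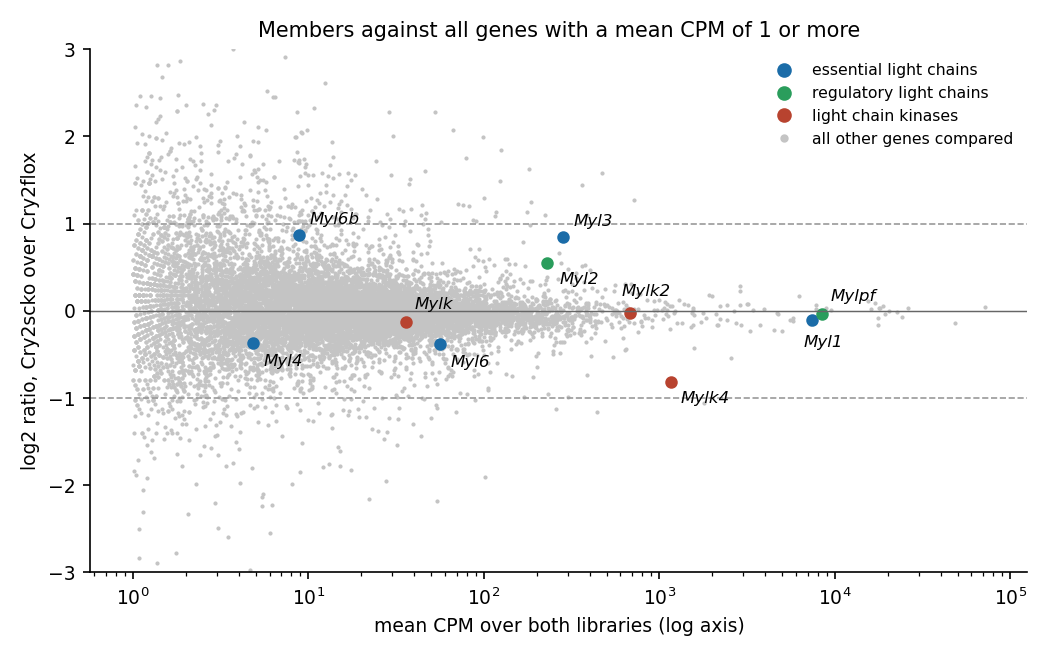
Mean CPM of both libraries (horizontal log axis) against the log2 ratio of Cry2scko over Cry2flox for 12832 genes in grey, with the 10 members coloured by role and dashed lines at 2-fold; 19 genes lie outside the drawn range of -3 to 3. Mylk4 at -0.82 and Myl3 at 0.85 sit at the edge of the narrow band of abundant genes, where most ratios are near 1.

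Levels of different genes were compared per length, on the deposited FPKM scale (fragments scaled to gene length and library size). In Cry2flox the order was Mylpf at 4849, Myl1 at 2297, Mylk2 at 229, Mylk4 at 205, Myl6 at 94.6, Myl3 at 73.9 and Myl2 at 60.7. Below these came Myl6b at 6.03, Mylk at 3.61 and Myl4 at 0.979 FPKM. Neighbours in this order had counting intervals that did not overlap, including Mylk2 (225 to 233) and Mylk4 (203 to 208). Neighbours in Cry2scko did not overlap either. There the first 3 and last 3 kept their places, at 4797, 2161 and 229 FPKM and at 11.2, 3.36 and 0.766 FPKM. Between them the order became Myl3 at 135, Mylk4 at 118, Myl2 at 90.2 and Myl6 at 73.8 FPKM. Myl3 thus stood at rank 6 in Cry2flox and rank 4 in Cry2scko, and Myl6 at rank 5 and rank 7, an order that depends on the lengths used.

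**Figure D3:**
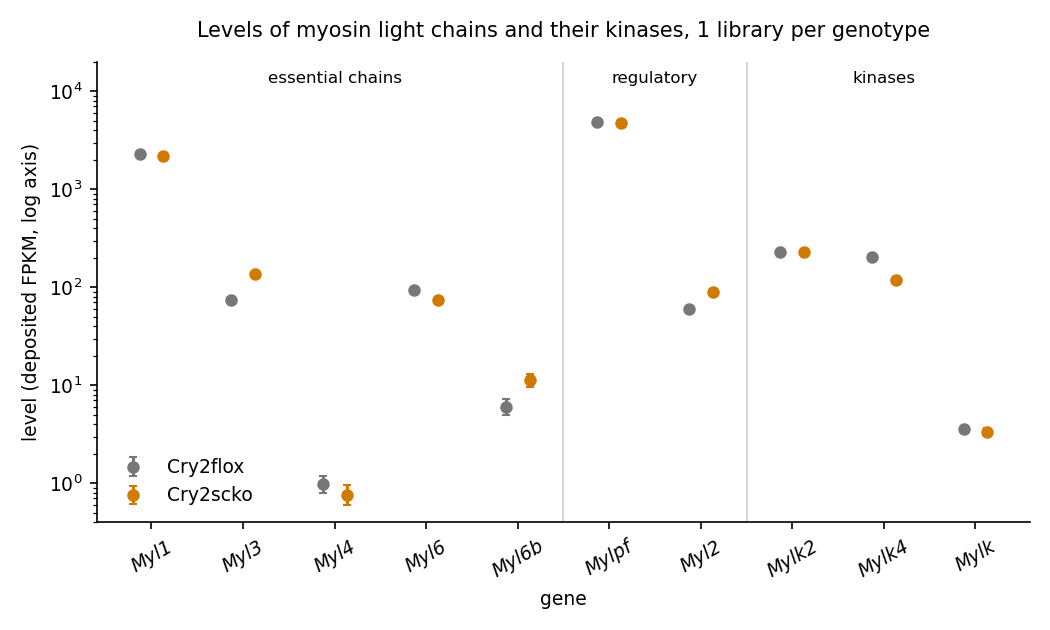
Deposited FPKM (vertical log axis) of the 10 genes in the Cry2flox library (grey) and the Cry2scko library (orange), with 95% counting intervals as bars where they exceed the point. Mylpf (4849 and 4797 FPKM) and Myl1 (2297 and 2161 FPKM) lie far above the rest in both libraries, and Myl3, Myl2 and Myl6b are higher and Mylk4 lower in Cry2scko.

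The gene lengths behind the FPKM values bear on that order. They are 3326 bases for Myl1 and 1758 for Mylpf, against 803 and 766 bases in the longest principal transcripts of GENCODE M21. Per kilobase of those transcripts, Mylpf exceeded Myl1 by 1.17-fold in Cry2flox and 1.23-fold in Cry2scko, where FPKM gave 2.11-fold and 2.22-fold. On this scale Mylk4 stood above Mylk2 in Cry2flox, at 115% of it, and below it in Cry2scko, at 66.0%. Myl6 ranked 7 of the members in both libraries on this scale, below Myl3 and Myl2, and Mylk ranked 10, below Myl4. Ratios of 1 gene between the libraries do not depend on its length.

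Ratios of 2 genes within a library are free of the scaling between libraries. Myl3 amounted to 3.22% of the Myl1 level in Cry2flox and 6.25% in Cry2scko by FPKM, and to 2.24% and 4.35% by principal transcript. The slow-to-fast ratio of essential chains was thus 1.94-fold higher in Cry2scko, a log2 change of 0.96 (0.90 to 1.02). Myl2 amounted to 1.25% of the Mylpf level in Cry2flox and 1.88% in Cry2scko by FPKM, and to 1.88% and 2.82% by principal transcript. The slow-to-fast ratio of regulatory chains was 1.5-fold higher, a log2 change of 0.59 (0.52 to 0.65). The intervals of the essential and the regulatory change do not overlap. Fast-type chains still made up nearly all of both pools: Myl1 held 92.9% of essential chain FPKM in Cry2flox and 90.7% in Cry2scko, and Mylpf 98.8% and 98.2% of regulatory chain FPKM.

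The slow heavy chain differed by more than the slow light chains. Myh7, the slow myosin heavy chain, had a log2 ratio of 1.27 (1.24 to 1.31), and its ratio to the fast Myh4 was 2.67-fold higher, a log2 change of 1.42 (1.38 to 1.46). Relative to Myh7, Myl3 was 1.34-fold lower in Cry2scko, a log2 change of -0.42 (-0.49 to -0.35). Myl2 was 1.65-fold lower relative to Myh7, a log2 change of -0.72 (-0.80 to -0.65). Within the slow pair, Myl2 stood at 82.2% of Myl3 by FPKM in Cry2flox and 66.7% in Cry2scko, and at 98.0% and 79.6% by principal transcript.

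Other slow-fibre genes were higher beside the slow light chains. All 10 slow-fibre markers had a ratio above 1, their summed level was 1243 CPM in Cry2flox and 2690 CPM in Cry2scko, and none was at 0. By the 2-fold rule 6 of the 10 were called higher (3.37% of all genes), and their median log2 ratio was 1.10. Among them Casq2, the slow calsequestrin, at 0.87 was closest to Myl3 and Myl6b. Myl2 at 0.55 was level with Myh7b, the lowest of the list at 0.55. The 8 fast-fibre markers had a median log2 ratio of 0.01, with 0 called, and summed to 139162 and 134218 CPM. The part of fibre make-up in the ratios of Myl2, Myl3 and Myl6b was not tested. Of 5 leukocyte markers, 3 were called higher (3.37% of all genes), namely Ptprc, Cd79a and Cd3e. Itgam was at -0.42 and Adgre1 at 0.76 (-0.05 to 1.62). The list had a median log2 ratio of 1.17 and a summed level of 36.3 CPM in Cry2flox and 84.4 CPM in Cry2scko, none at 0. Their part in the Myl6b ratio was not tested.

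**Figure D4:**
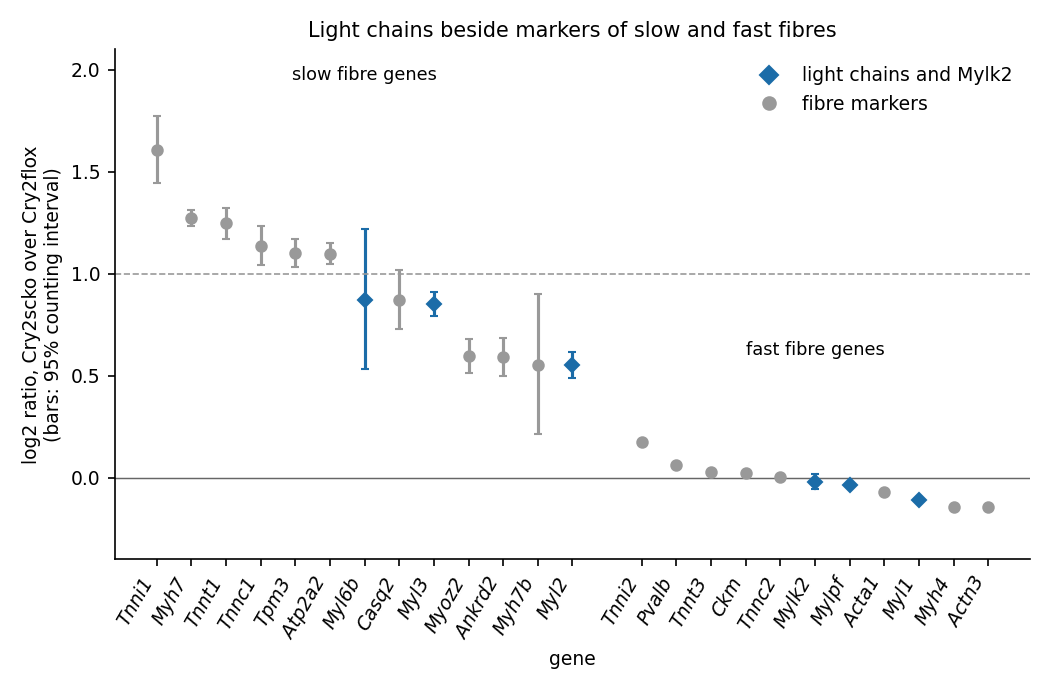
Log2 ratio of Cry2scko over Cry2flox (vertical axis) for light chains and Mylk2 (blue diamonds) and for markers of slow and fast fibres (grey circles), each group in falling order, with 95% counting intervals as bars and a dashed line at 2-fold. Myl6b at 0.87 and Myl3 at 0.85 lie in the lower part of the slow group, below 6 and 7 of its 10 markers, and Myl2 at 0.55 at its low end, while Mylk2, Mylpf and Myl1 lie near 0 with the fast group.

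Mylk4 took a smaller part of the kinase transcripts in Cry2scko. By FPKM it held 46.8% of the summed level of the 3 kinases in Cry2flox and 33.6% in Cry2scko, and Mylk2 held 52.3% and 65.4%. The ratio of Mylk4 to Mylk2 was 1.74-fold lower, a log2 change of -0.80 (-0.85 to -0.75). Relative to the fast regulatory chain Mylpf, the substrate of the skeletal enzyme, Mylk2 stayed at 4.73% and 4.78% by FPKM. By principal transcript it stood at 2.06% and 2.08%, and the log2 change was 0.01 (-0.02 to 0.05). Mylk4 went from 4.23% of the Mylpf level in Cry2flox to 2.46% in Cry2scko by FPKM, and from 2.37% to 1.37% by principal transcript.

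**Figure D5:**
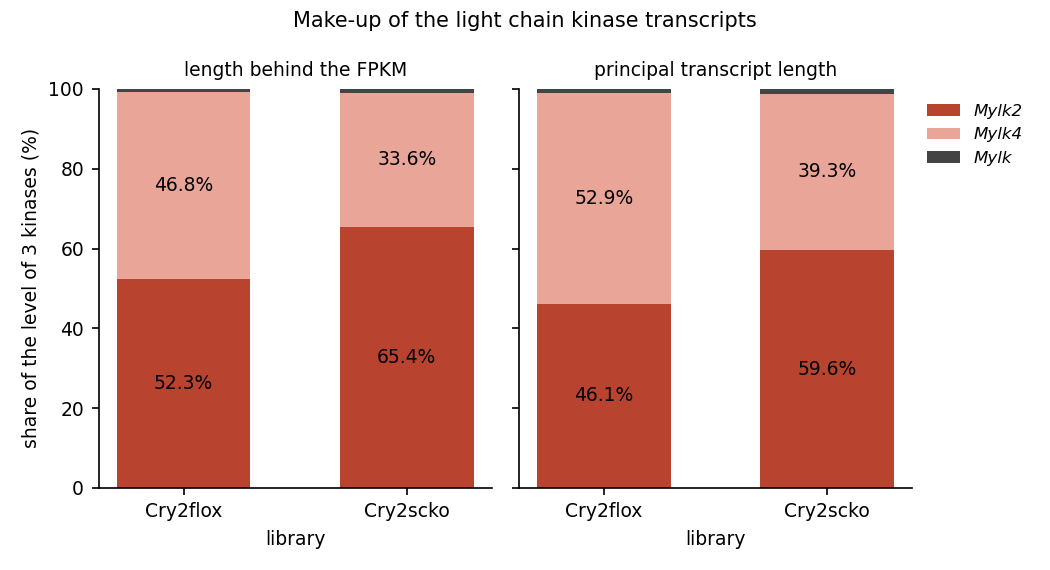
Share (percent) of the summed level of the 3 kinases taken by Mylk2, Mylk4 and Mylk in each library, with levels per length from the deposited FPKM (left) or per base of the principal transcript (right). The Mylk4 share is 46.8% in Cry2flox and 33.6% in Cry2scko on the left, and 52.9% and 39.3% on the right.

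Markers of developing or regenerating fibres, set beside the embryonic chain Myl4 and beside Mylk4, were mostly lower in Cry2scko, though not all. Their median log2 ratio was -0.63, with 5 ratios below 1 and 2 above. Of 7 with a mean of at least 1 CPM, 1 was called higher (3.37% of all genes) and 3 lower (1.51% of all genes). Cardiac actin Actc1, at -1.05, had 45201 reads in the Cry2flox library and 19201 in the other. The other genes called lower were perinatal myosin Myh8 at -1.13 and the fusion factor Mymk at -1.20. Myog at -0.63 (-0.94 to -0.34) and Ncam1 at -0.47 (-0.85 to -0.09) were lower without being called. The gene called higher was embryonic myosin Myh3, at 1.63 with 47 and 129 reads, and Chrna1 was at 0.01. The summed level of the list was 2456 CPM in Cry2flox and 1205 CPM in Cry2scko, nearly all of it Actc1, and none of its 9 genes was at 0. Its part in the ratios of Myl4 and Mylk4 was not tested.

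Smooth muscle and mural markers, which go with Mylk and Myl6, were mostly slightly lower in Cry2scko, with 8 ratios below 1 and 3 above. Of 10 compared none was called at 2-fold, their median log2 ratio was -0.12, and their summed level was 900 CPM in Cry2flox and 820 CPM in Cry2scko. None of the 11 listed was at 0. Myl9, the smooth muscle regulatory chain, was at -0.31 (-0.47 to -0.16) and alpha smooth muscle actin Acta2, the lowest of the list, at -0.36 (-0.49 to -0.23). Pdgfrb at -0.35 (-0.50 to -0.19) and Rgs5 at -0.11 (-0.15 to -0.07) were also lower, and the smooth muscle myosin Myh11 was at -0.07. Lmod1 at 0.41 (0.06 to 0.76), Myocd at 0.46 and Cnn1 at 0.55 were above 0, the last pair on 9 to 40 reads a library. Fibroblast markers were lower beside Myl6, with 4 of 4 ratios below 1, none at 0, and a summed level of 1179 CPM in Cry2flox and 794 CPM in Cry2scko. Of these, 1 was called lower (1.51% of all genes), the collagen chain Col1a1 at -1.13. Their part in the Myl6 ratio was not tested.

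Among the remaining light chains, kinases and phosphatase genes none was called at 2-fold. Of 5 other light chains, 4 were compared and none was called, at a median log2 ratio of -0.12. Myl10 had the lowest ratio, -0.73 (-1.44 to -0.07) on 55 and 29 reads, and was lower by the 1.5-fold rule. Of 7 other kinases that act on light chains, 6 were compared and none was called, at a median of -0.12. Their ratios ran from -0.51 for citron kinase Cit, on 68 and 42 reads, to 0.01 for Cdc42bpa, and Mylk3, the heart enzyme, had 14 and 12 reads. The 7 genes of the light chain phosphatase and its inhibitors were all compared, with none called, a median of 0.03 and a range from -0.06 for the catalytic subunit Ppp1cb to 0.23 for its targeting subunit Ppp1r12c.

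Of 9 sarcomeric heavy chains, 2 were called higher (Myh7 and Myh3; 3.37% of all genes) and 1 lower (Myh8; 1.51% of all genes), and the median log2 ratio was 0.27. Of 4 heavy chains outside the sarcomere none was called, the median was 0.01, and Myh14, a non-muscle chain, came closest at 0.96 (0.77 to 1.15) with 368 and 631 reads.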

How the data were processed

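RNA of gastrocnemius was sequenced from 2 libraries, 1 per genotype. CASAVA, HISAT2 2.0.4, StringTie 1.3.0 and the build GRCm38 are named in the submitters' processing notes; the counter, annotation release and strand setting are not given in the sources used here. The authors deposited whole-number read counts per Ensembl gene, not normalised, and FPKM values for each library, per the file headers.

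Names, positions and exons came from GENCODE M21 (GRCm38), and 34267 of the 34745 identifiers had a name. Counts were scaled by TMM (edgeR 4.0.16, R 4.3.3). For the log2 ratio, 0.5 reads were added to each count. Intervals are Clopper-Pearson for 1 gene and exact conditional (Fisher's noncentral hypergeometric) for a ratio of 2 genes. A principal transcript is the longest with the best APPRIS principal rank. List medians take members with a mean of at least 0.5 CPM. Depth was 18909433 and 16423884 reads, so genes with few reads have wide intervals. BLAST 2.17.0 against GENCODE M21 transcripts gave near copies of members (95% identity or more over 50 bases or more). Python 3.11.15, numpy 2.4.6, scipy 1.17.1, pandas 2.3.3 and matplotlib 3.10.9 were used. The calls and intervals were tested on simulated counts with counting error only, scaled by total counts. Such counts hold no spread between animals and no PCR copies, so they cannot show how the calls hold up against either. Alternatives were other scalings (total counts, DESeq2 1.42.0 size factors, totals without mitochondrial and the 20 most abundant genes), FPKM with 0.1 added, 5 reads added, other filters and a 1.5-fold threshold.

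The members and lists were chosen with earlier results of these data known. All members were described; of each list, called genes and a few with the highest or lowest ratio were named, and the other named genes were chosen after their values were seen. No library was left out. Results of a further list fixed for the pathway are not reported here.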

Additional observations from a re-analysis of the deposited data

How the results depend on the processing

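Across the scalings, the FPKM values and 5 added reads, the log2 ratio of Myl3 ran from 0.84 to 0.88, of Myl6b from 0.85 to 0.90, of Myl2 from 0.54 to 0.58 and of Mylk4 from -0.83 to -0.79. Myl1 ran from -0.12 to -0.08 and Mylpf from -0.04 to -0.01, each leaving its main counting interval under some settings. Scaled by totals without mitochondrial and the 20 most abundant genes, the Mylpf interval (-0.017 to 0.003) took in a ratio of 1. Mylk2 changed sign, from -0.03 to 0.01, so it has no direction, and the median of all genes compared ran from -0.01 to 0.03. Members called numbered 0 under every scaling and filter tried, and 2 higher and 1 lower with a 1.5-fold threshold, by its construction; leaving out the 4 members that share exon bases also left 0. That threshold also added 1 lower call among other light chains (Myl10) and 1 higher call among heavy chains outside the sarcomere (Myh14). Among sarcomeric heavy chains 0 were called lower with a mean CPM of 5 or more, since Myh8 then drops out. For all genes, against 432 higher and 194 lower, there were 789 and 396 without a filter, 175 and 76 where the mean CPM had to reach 5, and 842 and 558 at 1.5-fold. With FPKM values and 0.1 added, 311 were higher and 116 lower, against 449 and 180 for counts scaled by total counts. The cause was not tested. The length behind a level, an alternative chosen after seeing the data, reversed the order of Mylk4 and Mylk2 in Cry2flox. No paired analysis was possible because each genotype has 1 library, and for the same reason no library could be left out.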

Other observations

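Endothelial and Schwann cell markers differed little between the libraries. Of 3 endothelial markers compared 0 were called, at a median log2 ratio of -0.16 and a summed level of 336 CPM in Cry2flox and 314 CPM in Cry2scko. Of 3 Schwann cell markers compared 0 were called, at a median of 0.03, with 107 and 109 CPM. Myh2, the heavy chain of fast oxidative fibres, with 48632 and 52028 reads, stood at 0.28 (0.26 to 0.30).

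Mylk4 and Actc1 were both lower in Cry2scko, and relative to Actc1 the level of Mylk4 was 1.17-fold higher, a log2 change of 0.23 (0.19 to 0.27).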
